A study of Mus musculus with 10 samples.

Results

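The genes described here encode 10 integrin subunits, measured in sorted renin cells with 1 library for each kidney, in mice given an aortic coarctation or sham surgery. The members are Itgb1, Itgb3 and Itgb5, which encode β subunits, and Itga1, Itga3, Itga5, Itga7, Itga8, Itga9 and Itgav, which encode α subunits. They were chosen by symbol, and all 10 were found among the 32648 genes of the deposited table and among the 18825 genes with enough counts to be tested. The cells carried yellow fluorescent protein in the Ren1c-YFP line on a C57BL/6 background, in mice aged 8 to 12 weeks, and came from the kidney cortex 72 h after surgery. Each library was made from 1000 live cells of 1 kidney. The groups are the right kidneys of 3 coarctation mice, the left kidneys of the same 3 mice, the right kidneys of 2 sham mice and the left kidneys of the same 2 sham mice. In coarctation mice the aorta was narrowed between the origins of the renal arteries, and in sham mice the aorta was left unexposed and was not narrowed. The reporter marks cells with Ren1c promoter activity, so a cell that lost it and its protein would not be sorted, and no pressures are given.

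Integrins are receptors for the extracellular matrix, each made of 1 α and 1 β subunit. Their short tails bind talin and kindlin, which activate them and link them to actin, and cells use them to sense stretch and the stiffness of their surroundings. Renin cells lie in the wall of the afferent arteriole beside the mesangium and are known to respond to perfusion pressure. The partners are unequal in reach: β1 pairs with every α subunit listed here, β5 pairs with αv, and β3 pairs with αv or with the platelet subunit αIIb.

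Depth was 20029817 to 32006229 estimated counts per library, and log2 CPM correlated between libraries at 0.875 to 0.931. The first principal component held 22.7% of the variance and set both kidneys of sham mouse 1 against the other libraries. Markers of renin cells summed to 7327 to 16467 TPM in the right kidneys of coarctation mice, against 33401 to 56346 TPM in their left kidneys. In sham mice they summed to 24676 to 59977 TPM in right and 33977 to 53543 TPM in left kidneys. These sums were mostly Ren1, at a mean of 28784 TPM over the 10 libraries, and Akr1b7, at 4624 TPM. For coarctation right minus left, 3 of 7 renin cell markers had a log2 change above 0 and 4 below, with a median of -1.06. Markers of smooth muscle, at 5979 to 17825 TPM, and of mesangial cells, at 671 to 1965 TPM, were present in every library, as were those of the proximal tubule at 1200 to 11590 TPM. Loop, distal tubule and collecting duct markers summed to 121 to 1136 TPM, with the highest sum in the right kidney of coarctation mouse 1. For coarctation right minus left, 9 of these 12 had a log2 change above 0 and 3 below. Podocyte markers summed to 47.0 to 59.0 TPM in right kidneys and 83.7 to 105.9 TPM in left kidneys of coarctation mice. Platelet markers, which bear on Itgb3, summed to 0.544 to 21.8 TPM, with 5 of 6 averaging under 1 TPM. Leukocyte markers summed to 58.1 to 726.9 TPM and fibroblast markers to 1.33 to 46.6 TPM, with the highest fibroblast sum in the right kidney of coarctation mouse 1.

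The β1 subunit gene Itgb1 was the most abundant member by TPM, an abundance scaled by transcript length and library. Over the 10 libraries Itgb1 averaged 64.4 ± 12.6 TPM, Itgav 63.6 ± 20.4 TPM and Itgb5 42.9 ± 13.2 TPM (SD, n = 10). These 3 genes made up 75.8% to 84.4% of the TPM of all 10 members. The adhesion receptors of the arterial wall followed, with the laminin receptor gene Itga7 at 15.3 ± 4.53 TPM, the nephronectin receptor gene Itga8 at 9.50 ± 3.01 TPM and Itga9, whose product binds tenascin C and osteopontin, at 9.28 ± 3.63 TPM. Itga1, which encodes a collagen receptor, averaged 2.77 ± 0.600 TPM, and Itga3, which encodes a laminin receptor prominent on podocytes, 1.99 ± 0.970 TPM. Itgb3 averaged 0.810 ± 0.455 TPM. Itga5, whose product with β1 is the classical fibronectin receptor, was lowest at 0.315 ± 0.229 TPM.

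Several neighbours in this order could not be separated. Itgb1 exceeded Itgav in 6 of 10 libraries, Itga8 exceeded Itga9 in 7, and Itga1 exceeded Itga3 in 7. The steps from Itgb5 to Itga7 and from Itga9 to Itga1 held in 10 of 10 libraries, while Itgav exceeded Itgb5 in 9, Itga7 exceeded Itga8 in 9, Itga3 exceeded Itgb3 in 9 and Itgb3 exceeded Itga5 in 8. Leaving out 1 library at a time kept the full order in 3 of 10 cases. Itgb5 and Itgb3, whose products both join αv, differed widely in level, with Itgb5 far above Itgb3 in every library.

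**Figure D1:**
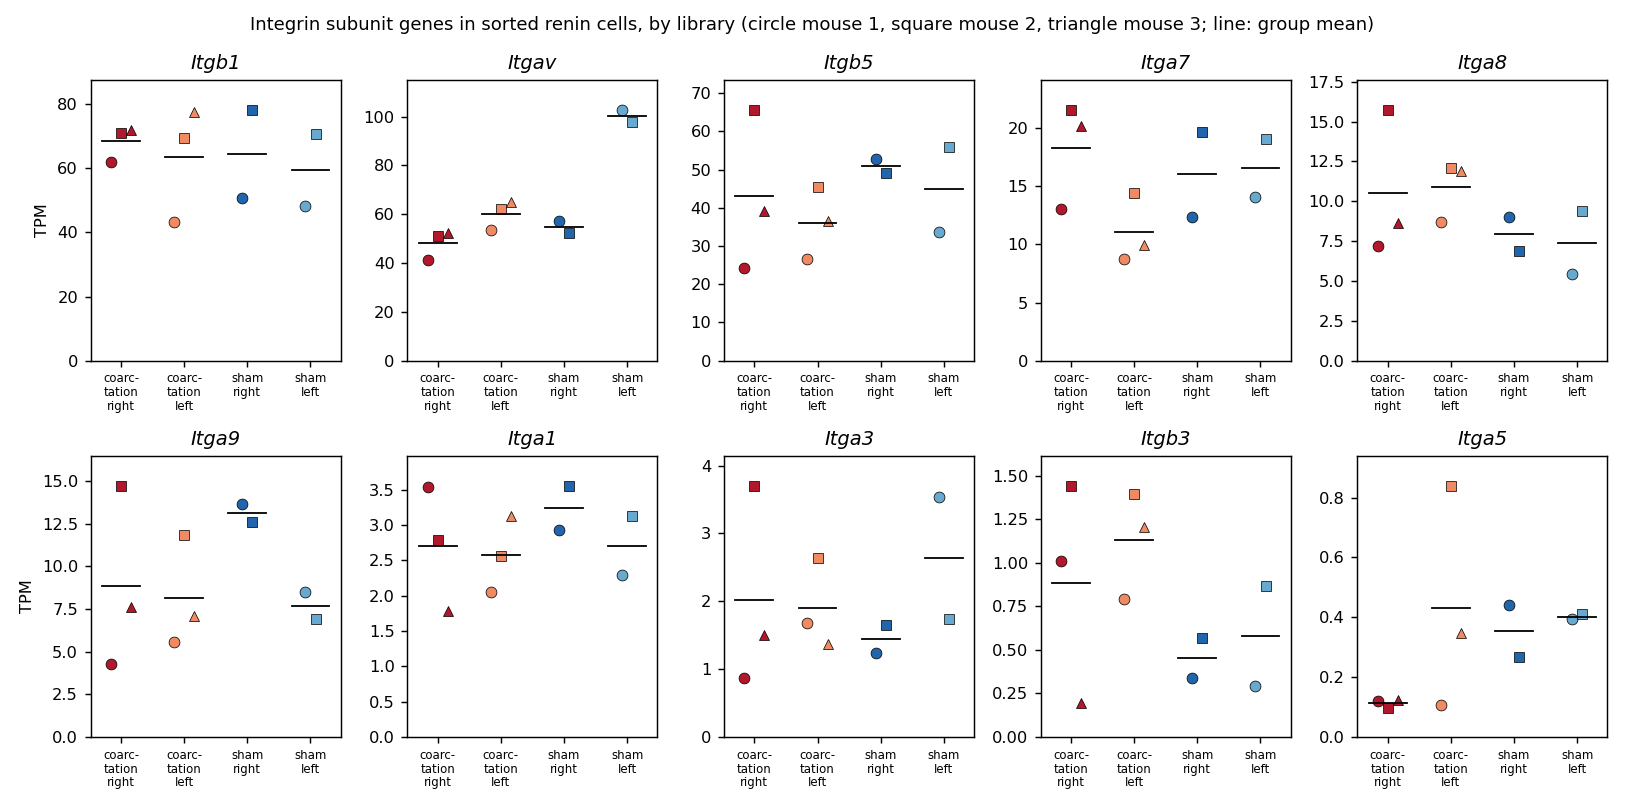
TPM of the 10 integrin subunit genes in each library, 1 panel per gene in descending order of mean TPM, with groups on the horizontal axis and TPM from 0 on the vertical axis. Each point is 1 kidney, its shape gives the mouse number, and the line is the group mean; Itgav reached 97.6 and 102.8 TPM in the left kidneys of sham mice, above the 41.3 to 65.0 TPM of the other libraries.

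The 10 members held 73.9% to 84.5% of the TPM of all 26 integrin subunit genes in the table. Of the other 16, Itga6, a laminin receptor gene, averaged 27.2 ± 7.88 TPM and Itga4, which encodes a receptor for fibronectin and VCAM1, 9.47 ± 2.08 TPM. The platelet gene Itga2b averaged 7.77 ± 3.70 TPM, Itgb6 6.47 ± 4.65 TPM and Itga10 4.57 ± 1.04 TPM, and the remaining 11, which include the leukocyte genes Itgb2, Itgam, Itgal and Itgax, averaged under 1 TPM. Itga6 and Itga2b rested on few reads, since no library had more than 678.5 estimated counts for Itga6 or 153.7 for Itga2b. The TPM of Itga6 also rested on a short average transcript length, as that of Itgav does below. This length was 283 to 692 bases, against a longest coding transcript of 4310 bases. By the assigned reads described below, Itga6 had 237 to 639 per library and Itga4 1509 to 3798, so Itga6 had fewer than Itga4 in every library.

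The genomic sequence around the starts of the 3 members with the highest TPM is shown because these genes held most of the members' TPM. Each sequence is the 300 bases from 250 before to 50 after the start in RefSeq on GRCm38.p6, on the plus strand, 5′ to 3′. The positions are chr8:128685404-128685703 for Itgb1, chr16:33829415-33829714 for Itgb5 and chr2:83724147-83724446 for Itgav. Capitals mark a GC box, GGGCGG or CCGCCC on the other strand, and the core of a cAMP response element, TGACG or CGTCA on the other strand. These 2 motifs do not overlap each other here.
Itgb1: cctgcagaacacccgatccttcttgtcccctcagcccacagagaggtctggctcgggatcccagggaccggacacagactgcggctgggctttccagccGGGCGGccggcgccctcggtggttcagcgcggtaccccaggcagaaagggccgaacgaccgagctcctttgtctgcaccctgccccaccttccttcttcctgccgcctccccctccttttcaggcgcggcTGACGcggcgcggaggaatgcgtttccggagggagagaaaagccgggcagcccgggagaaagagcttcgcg
Itgb5: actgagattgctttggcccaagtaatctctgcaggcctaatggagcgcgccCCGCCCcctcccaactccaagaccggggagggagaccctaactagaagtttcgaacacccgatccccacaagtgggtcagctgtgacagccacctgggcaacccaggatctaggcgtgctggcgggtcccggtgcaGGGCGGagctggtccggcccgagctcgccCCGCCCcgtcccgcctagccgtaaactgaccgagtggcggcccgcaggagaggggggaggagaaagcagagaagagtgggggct
Itgav: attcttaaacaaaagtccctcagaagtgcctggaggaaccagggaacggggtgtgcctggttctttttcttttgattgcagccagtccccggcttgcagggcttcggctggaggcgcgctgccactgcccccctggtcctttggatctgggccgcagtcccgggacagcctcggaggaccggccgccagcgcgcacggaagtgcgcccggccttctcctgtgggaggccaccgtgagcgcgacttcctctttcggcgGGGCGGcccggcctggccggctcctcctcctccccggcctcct
The GC box, the site bound by Sp1, occurred once in the Itgb1 window, 3 times in that of Itgb5 and once in that of Itgav, and it is in 35.7% of all 32851 promoter windows of this length. The response element core occurred once, in Itgb1, and is in 20.8% of all windows. GGAATG or CATTCC on the other strand, the core read by TEAD factors, occurred once in the Itgb1 window, in lower case here, and is in 14.7% of all windows. TATAAA or TTTATA on the other strand was in none of the 3 windows and is in 13.6% of all windows.

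The genes lie apart in the genome. By GENCODE vM21 on GRCm38, Itgb1 spans chr8:128685654-128733200, Itgav chr2:83724397-83806916, Itgb5 chr16:33829665-33949338 and Itga7 chr10:128933818-128958282, all on the plus strand. On the minus strand, Itga8 spans chr2:12106632-12301922, Itga1 chr13:114953096-115101964, Itga3 chr11:95044474-95076801 and Itga5 chr15:103344286-103366763. Itga9 spans chr9:118606690-118901003 and Itgb3 chr11:104608000-104670476, both on the plus strand. Itga7 overlaps Mettl7b on the opposite strand and Itga1 overlaps Pelo on its own strand. Whether reads were counted by strand is not given in the sources used here, so the values of Itga7 and Itga1 may include reads of those genes.

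The high TPM of Itgav rested on short transcripts. The deposited table gives each gene an average transcript length in each library, weighted by the transcripts assigned there, and for Itgav it was 620 to 1053 bases. The 2 longest protein-coding transcripts of Itgav are 6788 and 7054 bases long in GENCODE vM21, and the average length was 10.1% of the longest. For Itgb5 the average length was 680 to 1582 bases against a longest coding transcript of 3282 bases, or 35.3%. For Itgb1 it was 94.2%, for Itga8 89.3% and for Itga7 79.9%. Which transcripts of Itgav the cells made cannot be told from these values.

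Dividing by the longest coding transcript changed the order of the members. Assigned reads were recovered as TPM multiplied by the average length in the same library and scaled to the same total in every library (RPM), and 81 of 100 member values came out whole within 0.02. Over all genes 61.9% of values above 0 did, so this scale is an approximation of the reads. As assigned RPM per kilobase of the longest coding transcript, Itgb1 averaged 81.0 ± 13.6, Itgb5 20.5 ± 7.40, Itga7 16.5 ± 4.72, Itga8 11.1 ± 2.70 and Itgav 9.04 ± 2.03 (SD, n = 10). On this scale Itgav ranked 5 in place of 2, and Itgb1 ranked 1 on both scales. Itga9 followed at 8.34 ± 2.27, Itga1 at 2.00 ± 0.409, Itga3 at 1.85 ± 0.867, Itgb3 at 1.06 ± 0.604 and Itga5 at 0.357 ± 0.260.

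**Figure D2:**
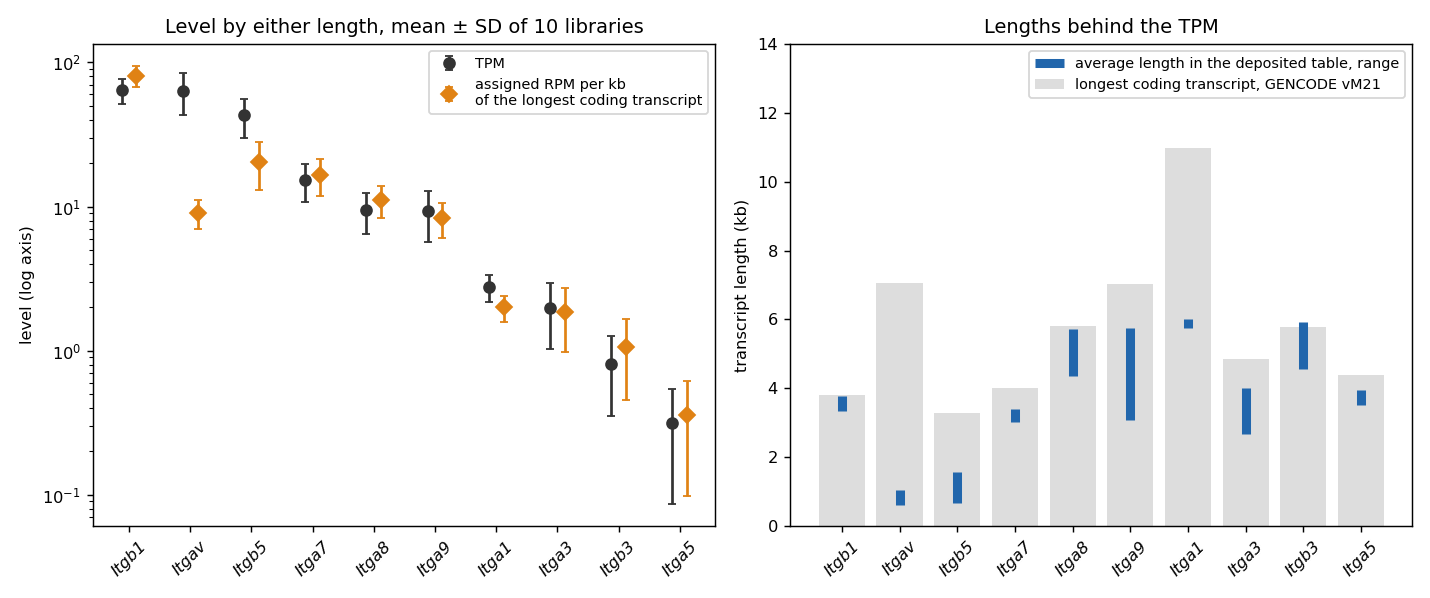
Left, the level of each member (log axis) as TPM and as assigned RPM per kilobase of the longest coding transcript, as mean ± SD of 10 libraries. Right, the longest coding transcript in kilobases as grey bars and the range of average lengths in the deposited table as blue lines; for Itgav the lengths were 620 to 1053 bases against 7054, and its level was 63.6 TPM against 9.04 RPM per kilobase.

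Right and left kidneys of the coarctation mice were compared to ask how the integrin genes differ between kidneys on either side of the narrowing. None of the 10 members passed an adjusted p of 0.05 in edgeR's quasi-likelihood test, where 0% of all genes tested passed. At an unadjusted p under 0.05, 1 of 10 members was lower in right kidneys, Itga5, against 4.63% of all genes in either direction. With mouse as a block, which compares the kidneys within each mouse, Itga7 and Itgav were under 0.05 without adjustment, against 5.93% of all genes, and no member passed after adjustment, where 0.0266% of all genes did. DESeq2 called 76 genes in this comparison and no member. The median log2 change of the members was -0.10, with 8 of 10 below 0, and the median over all genes tested was 0.02. With library totals only the members' median was 0.07, with 6 above 0 and 4 below, and that of all genes 0.17, and on log2 of TPM with either pseudocount 5 members were above 0 and 5 below.

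Itga7 was higher in the right kidney of all 3 coarctation mice. It had 13.0, 21.6 and 20.2 TPM in right kidneys of mice 1, 2 and 3, against 8.75, 14.4 and 9.93 TPM in their left kidneys. In sham mice 1 and 2 it had 12.4 and 19.7 TPM in right kidneys and 14.1 and 19.1 TPM in left kidneys. The right and left groups of the coarctation mice overlap, since mouse 2 was high and mouse 1 low on both sides, but within each mouse the right kidney was the higher. The difference in log2 CPM was 0.48, 0.43 and 0.79, and 14.5% of all genes were higher in the right kidney of every coarctation mouse. The log2 change was 0.57 (SE 0.32, 95% interval -0.13 to 1.27, edgeR adjusted p = 1.00), and with mouse as a block 0.57 (SE 0.22, 95% interval 0.07 to 1.07, edgeR adjusted p = 0.815).

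The side difference of Itga7 was as large in assigned reads. It had 57.0, 92.5 and 89.6 assigned RPM in right kidneys of coarctation mice, against 38.6, 63.5 and 42.6 in left kidneys. The log2 changes were 0.66, 0.50 and 0.94 by mouse, and 0.70 in edgeR with mouse as a block (SE 0.22, adjusted p = 0.697), with 19.2% of all genes higher in every coarctation mouse on this scale. The median change of all genes in that fit was 0.15. On estimated counts without the block, the right minus left change in sham mice was -0.07 (SE 0.39). In that fit the coarctation change minus the sham change was 0.64 (SE 0.51, edgeR adjusted p = 1.00). On assigned reads with mouse as a block these changes were -0.06 (SE 0.26) and 0.76 (SE 0.34). α7 is the laminin receptor of contractile cells. By summed TPM, markers of such cells were higher on the right with Itga7, and by single genes on the normalised scale they mostly were not. Smooth muscle markers summed to 8583, 17825 and 15584 TPM in right kidneys against 7603, 11715 and 14617 TPM in left kidneys of coarctation mice 1, 2 and 3, and mesangial markers to 1143, 1587 and 1622 TPM against 730, 1101 and 1073 TPM. The largest part of the smooth muscle sum was Myl9, at a mean of 6575 TPM over the 10 libraries. That of the mesangial sum was Serpine2, at 1017 TPM. In edgeR, 2 of 9 smooth muscle markers had a log2 change above 0 and 7 below, with a median of -0.13. Of 7 mesangial markers 3 were above 0 and 4 below, with a median of -0.18. The part of these cells in the result was not tested, and in libraries of pooled cells a change in the share of a cell type and a change in RNA per cell cannot be told apart. Mettl7b, on the opposite strand, had 10.5, 17.6 and 14.6 TPM in right kidneys against 21.4, 6.33 and 41.1 TPM in left kidneys of the same mice.

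Itgav was lower by TPM in the right kidney of all 5 mice. It had 41.3, 51.3 and 52.4 TPM in right kidneys of coarctation mice, against 53.7, 62.1 and 65.0 TPM in their left kidneys. In sham mice it had 57.4 and 52.3 TPM in right kidneys, against 102.8 and 97.6 TPM in left kidneys. On either operation the right and left groups did not overlap, and 3.62% of all genes were lower and 3.81% higher in the right kidney of every mouse. Itgav was the sole member of the first kind, and the second held none. Among coarctation mice alone 13.5% of all genes were lower in every right kidney, and among sham mice alone 24.3%. The log2 change was -0.48 in coarctation mice (SE 0.26, edgeR adjusted p = 1.00) and -0.91 in sham mice (SE 0.32, edgeR adjusted p = 1.00). The coarctation change minus the sham change was 0.43 (SE 0.42, edgeR adjusted p = 1.00). Over all mice, a comparison added after the values were seen, Itgav alone of the members had an unadjusted p under 0.05, against 3.29% of all genes, and 4.61% with mouse as a block, where 0.00531% of all genes and no member passed after adjustment. The change was -0.70 (SE 0.21, edgeR adjusted p = 1.00), and with mouse as a block -0.70 (SE 0.16, edgeR adjusted p = 0.838).

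In assigned reads Itgav was lower in the right kidney of both sham mice and of 1 of 3 coarctation mice. Right kidneys of coarctation mice had 62.8, 58.4 and 47.0 assigned RPM, against 55.6, 55.1 and 70.7 in left kidneys. Right kidneys of sham mice had 56.5 and 55.0, against 90.9 and 85.6 in left kidneys. The log2 differences were 0.27, 0.04 and -0.72 in coarctation mice and -0.77 and -0.61 in sham mice. On this scale 0 of 10 members were lower in the right kidney of all 3 coarctation mice, against 9.11% of all genes. Over all 5 mice 0 of 10 were lower and 0 higher in every right kidney, against 2.35% and 5.15% of all genes. The edgeR change was -0.12 in coarctation mice (SE 0.29, adjusted p = 1.00), -0.68 in sham mice (SE 0.35, adjusted p = 1.00), where the unadjusted p was no longer under 0.05, and -0.40 over all mice (SE 0.23, adjusted p = 1.00). The whole scale moved as well: the median change of all genes for coarctation right minus left was 0.15 on assigned reads, against 0.02 on estimated counts. The average length of Itgav went against the TPM in mice 1 and 2 and with it in mouse 3: it was 1053, 879 and 667 bases in right kidneys against 731, 673 and 817 bases in left kidneys of coarctation mice 1, 2 and 3. The deposited estimated counts use a single length for a gene in all libraries, so they follow the TPM and not the reads.

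**Figure D3:**
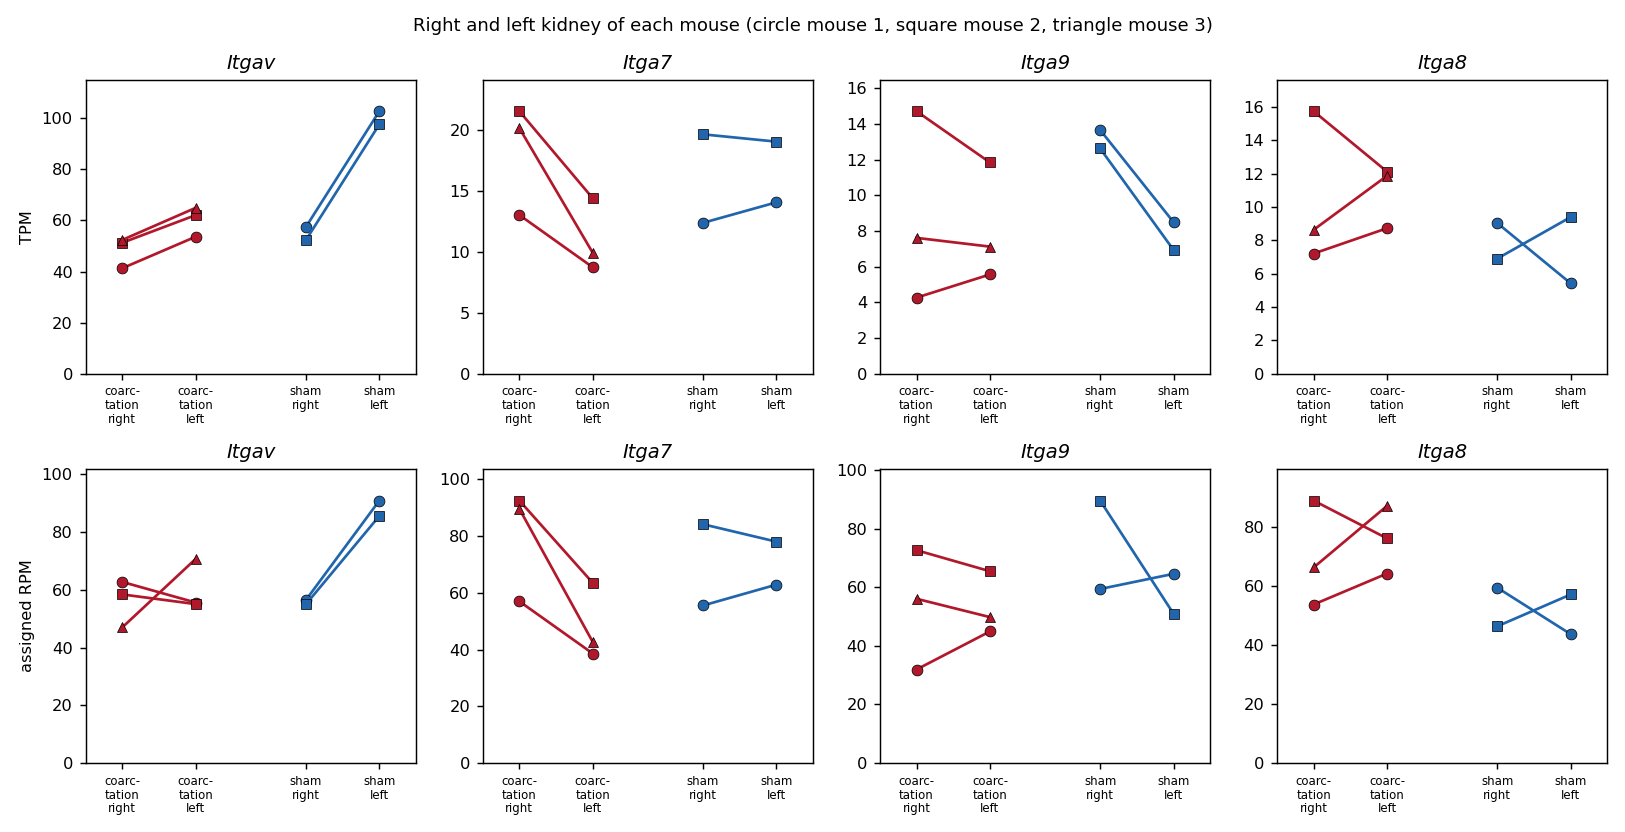
Right and left kidney of each mouse joined by a line for Itgav, Itga7, Itga9 and Itga8, as TPM (top) and as assigned RPM (bottom), both from 0, with coarctation mice in red and sham mice in blue. In all 3 coarctation mice Itga7 is higher in the right kidney on both scales, at 13.0 to 21.6 TPM against 8.75 to 14.4 TPM, while Itgav is lower in the right kidney of all 5 mice in TPM and of coarctation mouse 3 and both sham mice in assigned reads.

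The main β subunit genes showed no side difference that the replicates could resolve. Itgb1 had 62.1, 71.1 and 72.0 TPM in right kidneys of coarctation mice 1, 2 and 3, against 43.3, 69.5 and 77.6 TPM in left kidneys. Its log2 change was -0.04 (SE 0.31, 95% interval -0.71 to 0.63), and with mouse as a block the interval was -0.41 to 0.39. Itgb5 had 24.4, 65.6 and 39.2 TPM in right kidneys against 26.6, 45.4 and 36.4 TPM in left kidneys, with a log2 change of 0.06 (SE 0.35, 95% interval -0.69 to 0.81). The sign of the Itgb1 change depended on the scaling of the libraries, being 0.11 with library totals only. That of Itgb5 turned on assigned reads, at -0.0051, and without mouse 2, at -0.032. Itgb3 had 1.01, 1.44 and 0.195 TPM in right kidneys against 0.792, 1.39 and 1.20 TPM in left kidneys, with a log2 change of -0.51 (SE 0.74). By mouse its log2 CPM differed by 0.25, -0.10 and -2.78, so mouse 3 stood apart. The β3 gene was covered by 36.8 to 328.7 estimated counts per library.

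The fibronectin receptor gene Itga5 had the fewest counts of the members. It had 0.121, 0.0988 and 0.122 TPM in right kidneys of coarctation mice, against 0.109, 0.838 and 0.348 TPM in left kidneys. These values stand for 13.4 to 116.4 estimated counts per library, and the groups overlap because mouse 1 had the same low level on both sides. The log2 change was -1.97 (SE 0.89, 95% interval -3.90 to -0.05, edgeR adjusted p = 1.00), and with mouse as a block -1.66 (SE 0.96, edgeR adjusted p = 0.854). The differences in log2 CPM were 0.10, -3.04 and -1.65 by mouse. Without mouse 2 the log2 change was -0.90, and without its left kidney alone -1.06.

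The other α genes did not move together between the kidneys of coarctation mice. Itga8 had 7.20, 15.7 and 8.63 TPM in right kidneys against 8.72, 12.1 and 11.9 TPM in left kidneys, with a log2 change of -0.24 (SE 0.33). Itga9 had 4.26, 14.7 and 7.61 TPM in right kidneys against 5.56, 11.8 and 7.12 TPM in left kidneys, with a log2 change of -0.07 (SE 0.37). Both were highest in the kidneys of mouse 2. Itga1 had 3.53, 2.79 and 1.79 TPM in right kidneys against 2.05, 2.56 and 3.13 TPM in left kidneys, with a log2 change of -0.06 (SE 0.41). Itga3 had 0.866, 3.70 and 1.50 TPM in right kidneys against 1.69, 2.64 and 1.37 TPM in left kidneys, with a log2 change of -0.12 (SE 0.57). For these 4 genes at least 1 mouse went each way.

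Right and left kidneys of the sham mice show the difference between sides without a narrowed aorta. No member passed after adjustment, where 0% of all genes did, and at an unadjusted p under 0.05 Itgav alone was lower in right kidneys, against 1.94% of all genes in either direction. With mouse as a block Itgav and Itga9 were under 0.05, against 3.01% of all genes. Itga9 had 13.7 and 12.6 TPM in right kidneys of sham mice 1 and 2, against 8.49 and 6.93 TPM in left kidneys. The groups did not overlap, and 24.5% of all genes were higher in the right kidney of both sham mice. The log2 change of Itga9 was 0.73 (SE 0.46, edgeR adjusted p = 1.00), and with mouse as a block 0.74 (SE 0.29, edgeR adjusted p = 1.00). In assigned RPM it had 59.4 and 89.6 in right kidneys against 64.6 and 50.9 in left kidneys, so that sham mouse 1 went the other way. In that mouse the average length of Itga9 was 3077 bases on the right and 5333 bases on the left.

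The coarctation change minus the sham change asks whether the right minus left change differs between the operations, in either direction. For it 0 of 10 members had an unadjusted p under 0.05, against 3.05% of all genes, with 0% passing after adjustment in edgeR. The largest of the well covered members was Itga9 at -0.81 (SE 0.59, edgeR adjusted p = 1.00), and with mouse as a block it was -0.89 (SE 0.37, edgeR adjusted p = 1.00), so that 1 of 10 members, Itga9, had an unadjusted p under 0.05 in that fit, against 4.15% of all genes. In assigned reads with mouse as a block it was -0.40 (SE 0.42, edgeR adjusted p = 1.00). For Itga9 the side change was estimated at -0.07 in coarctation mice and 0.73 in sham mice, and their difference was not resolved after adjustment. On assigned reads the side changes of Itga9 were -0.04 (SE 0.33) and 0.39 (SE 0.41). The comparison shares its libraries with both side comparisons.

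**Figure D4:**
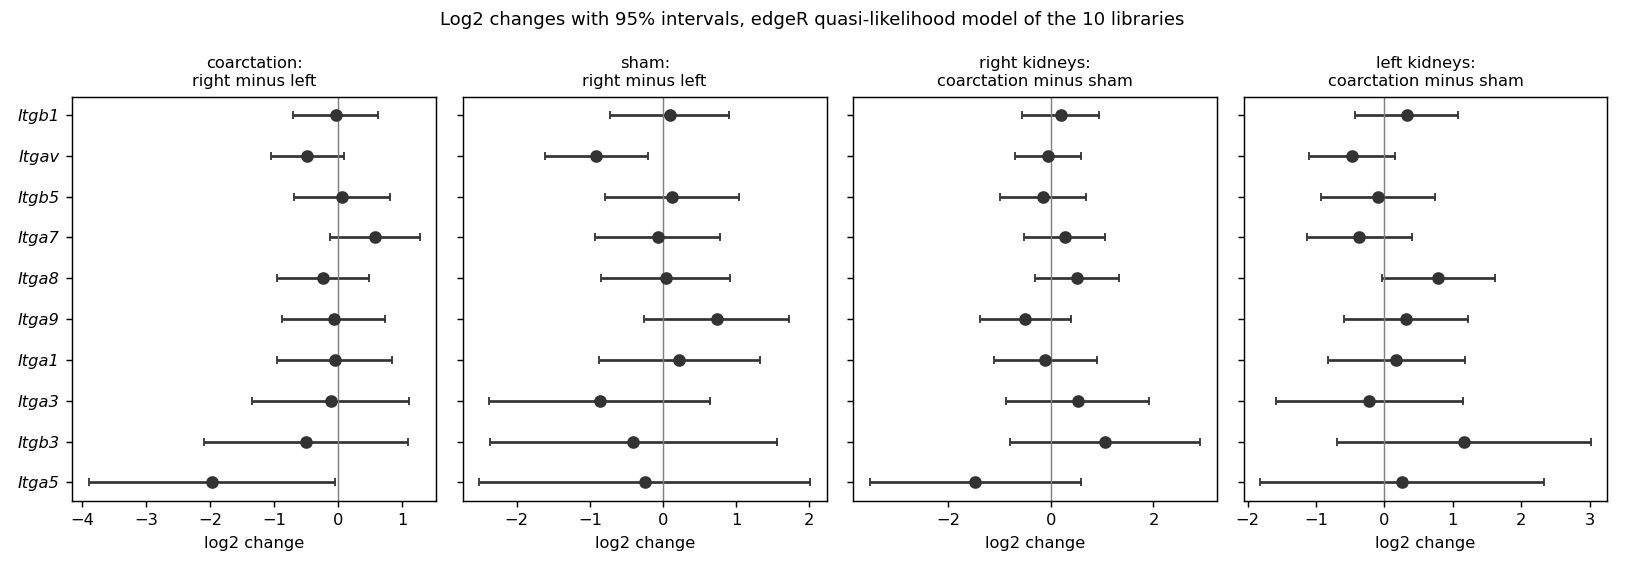
Log2 change of each member with its 95% interval in 4 comparisons, from the edgeR quasi-likelihood model of the 10 libraries, with genes in descending order of mean TPM and a grey line at 0. Every interval includes 0 except that of Itga5 for coarctation right minus left (-3.90 to -0.05) and that of Itgav for sham right minus left (-1.61 to -0.21), and intervals are widest for Itgb3 and Itga5, the members of lowest level.

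Coarctation mice were also compared with sham mice on each side. In left kidneys 0 of 10 members had an unadjusted p under 0.05 in edgeR, against 4.75% of all genes, and in right kidneys 0 of 10, against 3.82%, with 0% of all genes passing after adjustment on either side. Itga8, whose product with β1 binds nephronectin and is typical of mesangial and vascular smooth muscle cells, came nearest in left kidneys. It had 8.72, 12.1 and 11.9 TPM in left kidneys of coarctation mice, against 5.42 and 9.39 TPM in left kidneys of sham mice. Its log2 change there was 0.79 (SE 0.38, 95% interval -0.04 to 1.61, edgeR adjusted p = 0.912). The change was 0.40 without sham left kidney 1 and 1.35 without sham left kidney 2, the lowest and highest of the kidneys left out singly. In assigned RPM the groups did not overlap, with 64.4, 76.3 and 87.4 in coarctation against 43.8 and 57.3 in sham left kidneys, and the log2 change was 0.72 (SE 0.33, edgeR adjusted p = 0.947).

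In right kidneys the log2 change of Itga8 was 0.51 (SE 0.38, edgeR adjusted p = 0.995). On the log2 CPM scale every coarctation library of either side was above the sham libraries of that side, as were 9.73% of all genes in left and 7.20% in right kidneys, while by TPM the groups overlapped on both sides. Mesangial markers overlapped between the operations on both sides, at 1143 to 1622 TPM in coarctation and 671 to 1965 TPM in sham right kidneys, and at 730 to 1101 TPM in coarctation and 686 to 1402 TPM in sham left kidneys.

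Itgav was lower in left kidneys of coarctation mice, at 53.7 to 65.0 TPM, than in left kidneys of sham mice, at 97.6 to 102.8 TPM. The groups did not overlap, as for 12% of all genes in that direction, and the log2 change was -0.48 (SE 0.29, edgeR adjusted p = 0.912). In assigned reads they did not overlap either, at 55.1 to 70.7 assigned RPM in coarctation and 85.6 to 90.9 assigned RPM in sham left kidneys, with a log2 change of -0.39 (SE 0.32, edgeR adjusted p = 0.947). In right kidneys Itgav differed by -0.05 on the log2 scale (SE 0.29). The same 2 left libraries of sham mice enter this comparison and that between the sides of sham mice, so the comparisons are not separate evidence.

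Itgb3 had 0.792, 1.39 and 1.20 TPM in left kidneys of coarctation mice, against 0.293 and 0.867 TPM in left kidneys of sham mice, with a log2 change of 1.17 (SE 0.86). Itga5 had 0.0988 to 0.122 TPM in right kidneys of coarctation mice, against 0.269 to 0.443 TPM in right kidneys of sham mice. These did not overlap, as for 9.18% of all genes, and the log2 change was -1.46 (SE 0.95, edgeR adjusted p = 0.995). Itgb1 averaged 68.4 ± 5.50 TPM in coarctation (SD, n = 3) and 64.5 ± 19.4 TPM in sham right kidneys (SD, n = 2), and 63.5 ± 17.9 TPM in coarctation and 59.4 ± 15.8 TPM in sham left kidneys. The remaining members had intervals that included 0 on both sides.

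The balance of α and β transcripts by TPM largely restates Itgav, because this gene is a large part of the α sum. The β genes summed to 1.24 ± 0.0255 times the α genes by TPM in right kidneys of coarctation mice, 1.05 ± 0.150 times in their left kidneys (SD, n = 3 each), 1.19 ± 0.177 times in right kidneys of sham mice and 0.761 ± 0.227 times in left kidneys of sham mice (SD, n = 2 each). Itgav made up 46.7% to 58.7% of the α TPM in right kidneys and 58.3% to 66.6% in left kidneys of coarctation mice, and 53.9% to 59.1% in right and 70.6% to 75.0% in left kidneys of sham mice. These ratios carry the short length of Itgav described above.

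Genes for matrix ligands of integrins were mostly unresolved between the kidneys, with 0 of 30 passing after adjustment in any comparison in edgeR. For coarctation right minus left, 1 of 30 was higher and 1 lower at an unadjusted p under 0.05, against 4.63% of all genes in either direction. The median log2 change was -0.17. Vtn, which encodes vitronectin, a ligand of αvβ3 and αvβ5, had 4.13, 10.4 and 5.98 TPM in right kidneys of coarctation mice, against 0, 0.0414 and 0 TPM in left kidneys. It had 0.500 and 0.286 TPM in right kidneys of sham mice and 2.96 and 0.746 TPM in left kidneys. Vtn was therefore higher on the right in 3 of 3 coarctation mice and lower on the right in 2 of 2 sham mice. These values rest on few reads. Assigned reads of Vtn numbered 69, 436 and 212 in right and 0, 2 and 0 in left kidneys of coarctation mice. In sham mice they numbered 10 and 14 in right and 110 and 35 in left kidneys. The average length in the right kidney of coarctation mouse 1 was 426 bases. The adjusted p of Vtn in edgeR was 0.139 for coarctation right minus left and ranged from 6.83e-08 to 0.740 over the alternatives. For the coarctation change minus the sham change it was 0.391, and 1.37e-08 in DESeq2.

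Lama2, the laminin α2 chain gene, was the second ligand by p. It had 0.467, 1.56 and 2.76 TPM in right kidneys of coarctation mice, against 8.53, 3.43 and 4.45 TPM in left kidneys, with a log2 change of -2.03 (SE 0.63, edgeR adjusted p = 0.962; 0.0393 to 1.00 over the alternatives). Its assigned reads numbered 162, 307 and 543 in right kidneys against 262, 407 and 203 in left kidneys, and mouse 3 went the other way, with a log2 change on that scale of 0.14 (SE 0.48). Col18a1 and Emilin1 followed, with log2 changes of -0.51 (SE 0.27) and -0.77 (SE 0.42). Npnt, the ligand of α8β1, had 5.36, 2.81 and 1.75 TPM in right and 5.13, 1.90 and 6.08 TPM in left kidneys of coarctation mice.

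In right kidneys, coarctation against sham, 7 of 30 ligand genes had an unadjusted p under 0.05, against 3.82% of all genes, 5 of them higher and 2 lower. The median log2 change was 0.25, against -0.05 over all genes tested. The higher genes were Col3a1, Vtn, Tnc, Fn1 and Spp1, and the lower were Lama2 and Fbn1. On assigned reads Lama2 was no longer among them, with a log2 change of -0.31 (SE 0.53). Fn1, the fibronectin gene, had 7.68, 8.64 and 8.27 TPM in right kidneys of coarctation mice against 3.72 and 3.69 TPM in right kidneys of sham mice. The groups did not overlap, as for 7.20% of all genes in that direction, and the log2 change was 1.28 (SE 0.52, edgeR adjusted p = 0.995). Col3a1, a fibrillar collagen gene, had 13.9, 7.69 and 4.90 TPM in coarctation, against 0.976 and 0.0934 TPM in sham right kidneys, with a log2 change of 4.33 (SE 1.10, edgeR adjusted p = 0.995, DESeq2 adjusted p = 0.00274). Tnc, a ligand of α9β1, averaged 0.690 ± 0.500 TPM in coarctation (SD, n = 3) and 0.142 ± 0.0905 TPM in sham right kidneys (SD, n = 2). It had 0.797, 1.13 and 0.145 TPM in coarctation against 0.206 and 0.0779 TPM in sham right kidneys, so coarctation mouse 3 lay within the sham range. Fibroblast markers in the same libraries summed to 46.6, 1.34 and 2.08 TPM in coarctation and 7.10 and 2.03 TPM in sham right kidneys, and their part in these values was not tested.

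Among 22 genes for integrin activators and adhesion adaptors, 0 passed after adjustment in edgeR and the median log2 change was 0.12 for coarctation right minus left. In that comparison 1 of 22 had an unadjusted p under 0.05, against 4.63% of all genes. That gene was Tln2, which encodes talin 2, an activator that binds the β tail. It had 12.0, 16.9 and 11.9 TPM in right kidneys of coarctation mice, against 5.99, 5.46 and 3.22 TPM in left kidneys, 3.79 and 5.40 TPM in right kidneys of sham mice and 2.01 and 4.13 TPM in left kidneys. By TPM the right kidneys of coarctation mice were above all other libraries, and within every mouse the right kidney was the higher. On the log2 CPM scale 3.81% of all genes were higher in the right kidney of every mouse. The log2 change was 1.30 (SE 0.44, edgeR adjusted p = 0.992), and the adjusted p ranged from 0.213 to 1.00 over the alternatives. In assigned reads, where its average length was 1163 to 1561 bases in right and 1630 to 3056 bases in left kidneys of coarctation mice, the log2 change was 0.64 (SE 0.43, edgeR adjusted p = 1.00). On that scale the change of Tln2 in sham mice was also 0.64 (SE 0.53). Its coarctation change minus the sham change was 0.0011 (SE 0.77), so the sides differed alike on either operation. Fermt3, Lims2 and Pxn were next by p, at 2.33 (SE 1.16), -1.21 (SE 0.64) and 0.75 (SE 0.71). Of 4 genes for integrin inactivators 0 passed, with a median log2 change of 0.09. Itgb1bp1 stood at -0.34 (SE 0.34), Dok1 at 1.13 (SE 1.18), Flna at 0.21 (SE 0.40) and Sharpin at -0.04 (SE 0.50).

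Among the other 16 integrin subunit genes 0 passed after adjustment, with a median log2 change of 0.31 for coarctation right minus left. In that comparison 1 of 16 had an unadjusted p under 0.05, against 4.63% of all genes, and it was the leukocyte gene Itgax. It had 0.202, 0.203 and 0.0645 TPM in right kidneys of coarctation mice, against 0.00783, 0.0325 and 0.0145 TPM in left kidneys. Itgb6, Itgb8 and Itgal were next by p, with log2 changes of 0.93 (SE 0.65), -0.96 (SE 0.68) and 1.67 (SE 1.22). Itgb6, whose product pairs with αv, averaged 10.4 ± 7.33 TPM in coarctation (SD, n = 3) and 3.16 ± 2.24 TPM in sham right kidneys (SD, n = 2), a log2 change of 1.96 (SE 0.78, edgeR adjusted p = 0.995). On assigned reads it was 0.76 (SE 0.87). It stood at 12.4, 2.24 and 16.4 TPM in the right kidneys of coarctation mice, so that mouse 2 lay within the range of the sham kidneys.

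The genes whose log2 CPM followed the 2 leading members by TPM most closely over the 10 libraries were taken from 9867 well covered genes. For Itgb1 they were Commd3 (Pearson r = 0.958), Atp6v1h (0.956) and Acer3 (0.948). For Itgav they were Smap1 (0.932), Arid2 (0.927) and Sqle (0.900), and like Itgav each of these had its highest group mean in the left kidneys of sham mice. These are descriptions over libraries that share mice and scaling. Between members, Itgav and Itgb5 correlated at -0.09 over the same libraries.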

How the data were processed

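RNA-seq was analysed from sorted renin cells of 10 kidneys of 5 mice. The deposited table holds, per the file headers, TPM, estimated counts (made from TPM and length, per a column of the file) and an average transcript length per gene and library. Per the submitters' processing notes, GRCm38 (mm10) and FastQC were used; no aligner or quantifier is named in them. Estimated counts were rounded, filtered with filterByExpr and tested in R 4.3.3 with edgeR 4.0.16 (quasi-likelihood, TMM, 4 groups in 1 model, 6 residual degrees of freedom, Benjamini-Hochberg over 18825 genes). The study's groups come from its labels, and the kidneys of a mouse were paired by the mouse number in the titles; deviations of the 2 kidneys correlated at 0.13, 0.05 and 0.03 in coarctation mice. The block fit had 3 residual degrees of freedom. Log2 CPM used a prior count of 2. DESeq2 1.42.0, limma 3.58.1, other scalings, filters, pseudocounts and left-out kidneys and mice were alternatives. Scripts were tested on simulated data. Members and lists were chosen with earlier results of these data known. The text names all members and, of each list, the 4 genes with the smallest p; Npnt, Spp1, Fbn1, Lama2 in right kidneys and the overlapping genes were chosen after their values were seen. Intervals rest on a spread shared by the 4 groups and moderated over all genes (12.79 degrees of freedom), not on the 2 or 3 mice of a group alone. Without the block they take the 2 kidneys of a mouse as independent.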

Additional observations from a re-analysis of the deposited data

How the results depend on the processing

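No member passed an adjusted p of 0.05 in any comparison with any tool or setting run, and the smallest adjusted p of a member was 0.135, for Itgav over all mice. The number of members at an unadjusted p under 0.05 was small and moved. For coarctation right minus left it was 1, 0 with limma-voom, without a filter, on log2 of TPM with either pseudocount and on assigned reads, 2 with mouse as a replicate block, and 0 to 1 without single kidneys or mice (0 without coarctation right 1, 2 or 3, coarctation left 3, sham left 1 or 2, coarctation mouse 2 or 3 or sham mouse 2, and 0 with the block and no coarctation mouse 3). For sham right minus left it was 1, 0 without a filter and on assigned reads, 2 with the replicate block, 0 to 1 without single kidneys or mice (0 without sham right 1, sham left 2 or sham mouse 1), and with the block 2 without any 1 coarctation mouse and 0 without sham mouse 1. For the difference of the changes it was 0, 1 with the replicate block, and 0 to 1 without single kidneys or mice (1 without coarctation right 2 or sham right 2). For coarctation minus sham it was 0 in left kidneys, 1 with limma-voom, library totals only, either TPM pseudocount and assigned reads, and 0 to 1 without single kidneys or mice (1 without sham left 2 or sham mouse 2); in right kidneys it was 0, and 1 without coarctation right 2 or coarctation mouse 2. Over all mice it was 1, and 0 on assigned reads with or without the block. Without single kidneys or mice the members' median log2 change ran from -0.48 to 0.044 for coarctation right minus left, -0.34 to 0.52 for sham, -0.17 to 0.40 for coarctation minus sham in left kidneys and -0.19 to 0.20 over all mice; the cause was not tested.

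Small changes reversed. For coarctation right minus left, Itgb1 was 0.11 with library totals only, 0.15 on log2 of TPM with either pseudocount, 0.11 on assigned reads and 0.14 on those with the block. Itga9 was 0.10 with library totals only and 0.019 and 0.0099 on log2 of TPM, and Itgb5 was -0.0051 on assigned reads and -0.13 on those with the block. With the block and 1 mouse left out, Itga9 was 0.0095 (coarctation mouse 1), Itgb1 0.18 and 0.15 (mice 2 and 3) and Itgb5 -0.036 (mouse 2). For sham, Itga7 was 0.052 without sham mouse 1 and Itgb1 -0.023 without sham mouse 2. Over all mice, Itgb1 was -0.080 without coarctation mouse 1 and -0.017 without sham mouse 2, and Itgb5 -0.084 without sham mouse 1. Itgav in right kidneys, coarctation minus sham, was 0.17 on assigned reads. Library totals alone moved the median of all genes for coarctation right minus left to 0.17, and assigned reads moved it to 0.15. Leaving out single kidneys or mice, the log2 change for coarctation right minus left ran from -0.24 to 0.26 for Itgb1, -0.26 to 0.39 for Itgb5, -0.53 to 0.0054 for Itga8 and -0.52 to 0.32 for Itga9. For sham it ran from -0.42 to 0.49 for Itgb1 and -0.61 to 0.32 for Itga7, for right kidneys from -0.10 to 0.034 for Itgav and -0.17 to 0.72 for Itgb1, and over all mice from -0.23 to 0.22 for Itgb1 and -0.10 to 0.35 for Itgb5. Itga7 for coarctation right minus left stayed between 0.45 and 0.84, and Itgav over all mice between -0.73 and -0.40, in all settings run. Over all genes, coarctation right minus left called 0 in edgeR, 76 in DESeq2, 5 with the block and 112 without a filter. In DESeq2 the sham comparison called 28, the difference 34, left kidneys 39, right kidneys 55 and all mice 41, none a member, against 0 each in edgeR. Groups of 2 or 3 mice and a common dispersion of 0.45 limit what the test resolves, and low counts limit Itga5 and Itgb3 further.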
